A study of Mus musculus with 10 samples.

Results

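Normal mammary fibroblasts (NFs) that had shared a gel with tumor cells were compared with NFs from a gel without them. The comparison used 6 of the 10 RNA sequencing libraries of the study, which are all of its NF libraries, chosen by the culture that the labels name. The NFs came from the mammary glands of mTmG mice aged 8 weeks, whose cells are red until Cre recombinase turns them green. They had been sorted into CD26− and CD26+ cells (CD26 is a surface peptidase, the product of Dpp4) and grown on plastic before the gels were set up. The CD26+ NFs, and not the CD26− NFs, had then received an adenovirus that carries Cre, so the virus and the subset cannot be told apart. Each gel of collagen and basement membrane extract (BME) held both subsets in equal parts. Gel 1 held NFs alone, gel 4 held NFs with tumor cells of line 13-MCB-17, and gel 5 held NFs with tumor cells of line 10-SJK-221. Both lines came from invasive lobular carcinomas of mice with WapCre, floxed Cdh1 and a further floxed allele not reported here. After 7 days the gels were digested and the cells were sorted by color, which gave 1 CD26− and 1 CD26+ library per gel, 2 libraries of NFs alone and 4 of co-cultured NFs. NFs for a sort were as a rule pooled from several mice, the 2 libraries of a gel came from the same gel, and only 1 gel held NFs alone. The p-values therefore measure only the spread between these libraries, and an effect of tumor cells and a feature of gel 1 itself cannot be told apart. Line and gel cannot be told apart either.

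Fibroblasts build the connective tissue of the mammary gland: they secrete fibrillar collagens, proteoglycans and elastic fibers, and they hold growth factors and Wnt antagonists in that matrix. In tumors they are called cancer-associated fibroblasts, and they are known for matrix remodeling by matrix metalloproteinases (MMPs), for contraction through smooth muscle actin, and for cytokines and chemokines that act on tumor cells and leukocytes. Single-cell studies commonly divide them into myofibroblastic cells, with contractile and matrix genes, and inflammatory cells, with cytokine and chemokine genes. The question here is which of these programs stood higher or lower in NFs that shared a gel with tumor cells.

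The NF libraries held 14142334 to 17376216 read counts over 55486 genes, and values are given as CPM (counts per 1000000 counts of the library). A count of 3, taken as the most that an observed 0 allows, stands for 0.173 to 0.212 CPM in these libraries, a floor that covers counting error only. In a principal component analysis of the 6 libraries, the first component (74.8% of the variance) separated gel 1 from gels 4 and 5 and the second (13.1%) separated the subsets. Mitochondrial transcripts took 1.67% and 1.68% of counts in NFs alone and 0.816 to 1.05% in co-cultured NFs. Of 20 fibroblast markers, all passed the filter on low counts, which by itself does not show identity. Among them Pdgfrb, the receptor that marks mesenchymal cells, stood at 1043 and 764 CPM in NFs alone, 907 and 483 CPM in gel 4 and 1262 and 747 CPM in gel 5 (CD26− first, then CD26+, in each pair). The summed level of the 20 markers was 76868 to 83043 CPM in NFs alone but 29470 to 48718 CPM in co-cultured NFs and was mostly Col1a1, Col1a2 and Col3a1. In the tumor libraries the same 20 genes summed to 4345 to 10291 CPM. Of the 20, 6 rose (30%), 8 fell (40%) and 6 did not pass the test, with a median log2 fold change of -0.19. Over all genes tested, 26.0% rose and 23.0% fell. Of the 14 calls, 9 held without gel 5, and fewer without the CD26+ library of NFs alone. The podoplanin gene Pdpn rose (2.06 ± 0.20, with ± for the standard error here and throughout), while Dpt (dermatopontin, -4.78 ± 0.26) and Ly6a (-2.44 ± 0.28) fell. Thy1 rose (1.30 ± 0.34) but was not called without the CD26− (1.12) or the CD26+ library of NFs alone (1.48), and was 0.78 without gel 5.

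Many genes differed between co-cultured NFs and NFs alone. Of 15013 genes that passed the filter, 3902 (26.0%) were higher and 3449 (23.0%) were lower in co-cultured NFs at an adjusted p under 0.05 (edgeR quasi-likelihood test with the subset as covariate, Benjamini-Hochberg adjustment over all genes tested). At an absolute log2 fold change over 2, which is over 4-fold on the linear scale, 1372 genes (9.14%) were higher and 673 (4.48%) were lower. The median log2 fold change of all genes tested was 0.02. The shares of 26.0% and 23.0% and this median are the background for the counts of each list below. Scaling of the libraries assumes that most genes do not change, so the median largely follows from it. Libraries of the conditions did not overlap for 8096 genes (53.9%), and 3860 of the rises and 3443 of the falls went the same way in all 4 pairs of a co-cultured library with the gel 1 library of its subset. Between gels 4 and 5, which held different tumor lines, 0 of 15013 genes differed at an adjusted p under 0.05 (lowest adjusted p = 0.283, edgeR), while 959 had an unadjusted p under 0.05. Each gel gave 1 library per subset, so this lack of calls does not show that the gels or lines act alike. Leaving out gel 4 or gel 5 left 5879 and 5149 calls, of which 5618 and 5039 were among the 7351, all in the same direction. In bulk RNA, fewer cells of a type and less RNA per cell cannot be told apart.

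Some tumor RNA was present in the co-cultured NF libraries. The epithelial genes Krt8, Krt18, Epcam, Cdh1, Cldn4, Esrp1 and Lad1 were near 0 in NFs alone, and their CPM in co-cultured NFs were in the median 1.91% (CD26−, gel 4), 2.75% (CD26+, gel 4), 2.14% (CD26−, gel 5) and 4.45% (CD26+, gel 5) of the CPM of the tumor library of the same gel. Of 20 epithelial markers, 16 were tested, 14 rose and 13 of these had at least 50% of their rise covered by that share of the tumor level. The 7 genes that set the share are among these 13, so their coverage follows from its definition, and the other 6 were Krt7, Cldn3, Elf3, Grhl2, Spint1 and St14 (52.3 to 105%). For each rise, the covered part is given here as this share times the tumor level, over the rise. An upper estimate takes the highest marker ratio and the highest of the 4 tumor libraries instead. Of the 1372 rises over 2, 1140 had under 10% covered and 115 had 50% or more, and for 788 the mean of co-cultured NFs lay above each of the 4 tumor libraries. Among all 3902 rises, 139 had 50% or more covered, and 210 were no longer called once the share was subtracted from the counts. Subtraction of a median share does not remove all tumor RNA. Krt18, 1 of the 7 genes that set the share, was still called after it (adjusted p = 0.00165, edgeR). A call that held after subtraction, here and below, can therefore still contain tumor RNA. Whether RNA in solution or whole tumor cells carried it over was not tested.

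**Figure D1:**
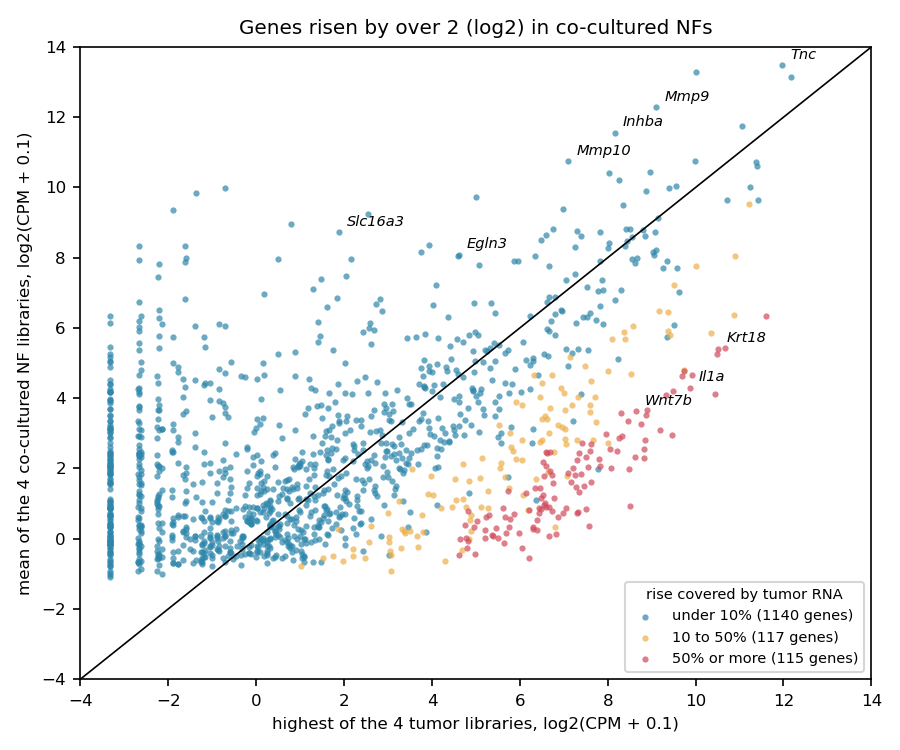
Each point is 1 of the 1372 genes that rose by over 2 on the log2 scale in co-cultured NFs, by its highest level in the 4 tumor libraries (x, log2 of CPM + 0.1) and its mean level in the 4 co-cultured NF libraries (y, log2 of CPM + 0.1), and the line marks equal levels. Color gives the part of the rise that the tumor share covers. The 115 genes with 50% or more covered, such as Krt18 and Wnt7b, lie far below the line, while Mmp9, Inhba and Slc16a3 lie above it.

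Matrix-degrading enzymes were among the largest rises. Of 18 MMP genes, all tested, 8 rose, 5 fell and 5 did not pass the test (median log2 fold change 1.03, against 0.02 over all genes). Together they took 0.716% and 0.892% of counts in NFs alone and 1.99 to 3.31% in co-cultured NFs. The stromelysins Mmp3 and Mmp10, the metalloelastase Mmp12 and the collagenases Mmp1a, Mmp1b and Mmp13 lie in a cluster on chromosome 9, and all 6 rose. The collagenase Mmp8, in the same cluster, stood at 1.86 and 0 CPM in NFs alone, 1.15 and 0.899 CPM in gel 4 and 1.50 and 1.27 CPM in gel 5 and did not pass the test (log2 fold change 0.74 ± 0.84, adjusted p = 0.494). Their promoters are shown because they share the AP-1 motif, the site of Fos and Jun proteins, a search that was chosen after the values were seen. RefSeq promoter windows (250 bases before to 50 after the start, GRCm38.p6) were at hand for 13 of the 18 genes. The letters TGAGTCA or TGACTCA, which are each other's reverse complement, stood in a window of each of the 6 risen genes that had one, and in none of the windows of the 7 other genes, of which 4 fell and 3 did not pass the test. Mmp9 and Mmp17, which also rose, had no window. Of all 32851 windows in the table, 5.20% held these letters. A match is a description of the sequence and not a bound site. The stretches below run 5′ to 3′ on the gene's strand and end before the start, with the motif in capitals (Mmp3, chr9:7445716-7445812, plus strand; Mmp10, chr9:7502219-7502315, plus strand; Mmp12, chr9:7347270-7347366, plus strand; Mmp13, chr9:7272419-7272513, plus strand).
Mmp3: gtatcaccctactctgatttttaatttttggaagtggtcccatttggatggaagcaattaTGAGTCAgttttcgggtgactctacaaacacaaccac
Mmp10: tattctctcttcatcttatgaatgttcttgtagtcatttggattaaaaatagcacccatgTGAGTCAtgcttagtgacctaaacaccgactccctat
Mmp12: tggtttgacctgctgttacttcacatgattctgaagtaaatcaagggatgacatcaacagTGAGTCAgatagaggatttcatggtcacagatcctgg
Mmp13: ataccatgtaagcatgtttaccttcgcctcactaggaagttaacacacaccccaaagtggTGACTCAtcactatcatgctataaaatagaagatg

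Mmp3 (ENSMUSG00000043613, chromosome 9, 7445822 to 7455975), which cleaves proteoglycans, fibronectin and basement membrane, stood at 1048 and 780.1 CPM in NFs alone, 8729.8 and 9337 CPM in gel 4 and 8870.1 and 13024 CPM in gel 5. Each co-cultured library was higher than both libraries of NFs alone (log2 fold change 3.49 ± 0.27, adjusted p = 4.06e-06). Mmp10, with a similar range of substrates, stood at 3.10 and 5.76 CPM in NFs alone, 1094 and 1791 CPM in gel 4 and 1273 and 2689.8 CPM in gel 5, and its CD26+ libraries were the higher of each pair (log2 fold change 8.64 ± 0.31, adjusted p = 2.32e-08). Mmp9 (ENSMUSG00000017737, chromosome 2, 164940780 to 164955850), the gelatinase that degrades denatured collagen and basement membrane collagen, rose from 12.9 to 18.6 CPM to 3880.0 to 6332 CPM (log2 fold change 8.36 ± 0.26, adjusted p = 1.12e-08). Its tumor libraries held 106 to 550.5 CPM, and the tumor share covers 0.216% of the rise. Mmp12 stood at 0.373 and 0.281 CPM in NFs alone, 41.3 and 151 CPM in gel 4 and 33.7 and 158 CPM in gel 5, so CD26+ NFs stood above CD26− NFs in both co-cultures, while gel 1 held 10 counts in all (log2 fold change 8.06 ± 0.36, adjusted p = 2.03e-07). Mmp13 stood at 601 and 636 CPM in NFs alone, 1355 and 5032 CPM in gel 4 and 1962 and 5391 CPM in gel 5. Mmp13 had a log2 fold change of 2.23 ± 0.38 (adjusted p = 0.00219). The difference in response between the subsets did not pass the test for Mmp12 (2.41, adjusted p = 0.382) or Mmp13 (1.53, adjusted p = 0.158; edgeR, interaction term). Mmp1a and Mmp1b, the mouse interstitial collagenase genes, are close copies of each other, so reads may be divided unevenly between them. Mmp1a stood at 0 and 0.421 CPM in NFs alone, 0.545 and 3.60 CPM in gel 4 and 0.633 and 4.10 CPM in gel 5. Mmp1a had a log2 fold change of 3.50 ± 0.64 (adjusted p = 0.00123). Mmp1b had 3 counts in NFs alone against 1.27 to 3.68 CPM in co-cultured NFs, a ratio of 23.1 (95% counting interval 7.89 to 112). Each had 0 counts in 1 of the libraries of NFs alone, so no fold can be given without the other, and Mmp1a did not pass the filter on low counts without gel 4 or gel 5. Mmp17, a membrane-anchored MMP, rose from 9.83 to 17.4 CPM to 27.8 to 45.3 CPM (1.41). The falls included Mmp14, the membrane type 1 collagenase and activator of Mmp2 (2061 to 2386 CPM in NFs alone against 860.5 to 1480.0 CPM in co-cultured NFs, log2 fold change -0.90 ± 0.18, adjusted p = 0.00214), Mmp16 (-2.12, and -1.08 without the CD26− library of NFs alone) and Mmp23 (-1.70). Mmp2 itself, the constitutive gelatinase of fibroblasts, had a log2 fold change of -0.19 ± 0.16 (adjusted p = 0.354). The falls of Mmp15 (-1.76) and Mmp28 (-0.78) rested on single libraries: without the CD26+ library of NFs alone they were -0.19 and -0.51 and not called, nor were they without gel 4 (-1.38 and -0.66). Mmp15 was also lost without either library of gel 4 (-1.74 and -1.45) or the CD26+ library of gel 5 (-1.51) and was -2.85 without the CD26− library of NFs alone, and Mmp28 was lost without gel 5 (-0.91) or its CD26− library (-0.81).

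Of the 5 inhibitors of metalloproteinases, 4 were tested: Timp1 rose (507 to 626 CPM in NFs alone against 766 to 1769.8 CPM in co-cultured NFs, log2 fold change 1.21 ± 0.25, adjusted p = 0.00288), Timp2 fell (-0.64, and -0.50 without gel 4 and -0.56 without the CD26+ library of NFs alone, where it was not called), and Timp3 (-0.04 ± 0.14) and Reck (0.00 ± 0.13) did not pass the test. In the plasminogen system, 9 genes were listed, 8 were tested, 4 rose and 0 fell (the other 4 had an adjusted p over 0.05). Among the rises were the activator Plau (1.34 ± 0.21), its receptor Plaur (1.84 ± 0.16) and the inhibitor Serpinb2 (3.74 ± 0.19). Serpinb2 stood at 12.9 and 19.1 CPM in NFs alone, 138 and 313 CPM in gel 4 and 127 and 311 CPM in gel 5, so every co-cultured library was above both libraries of NFs alone (adjusted p = 2.34e-07, edgeR).

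**Figure D2:**
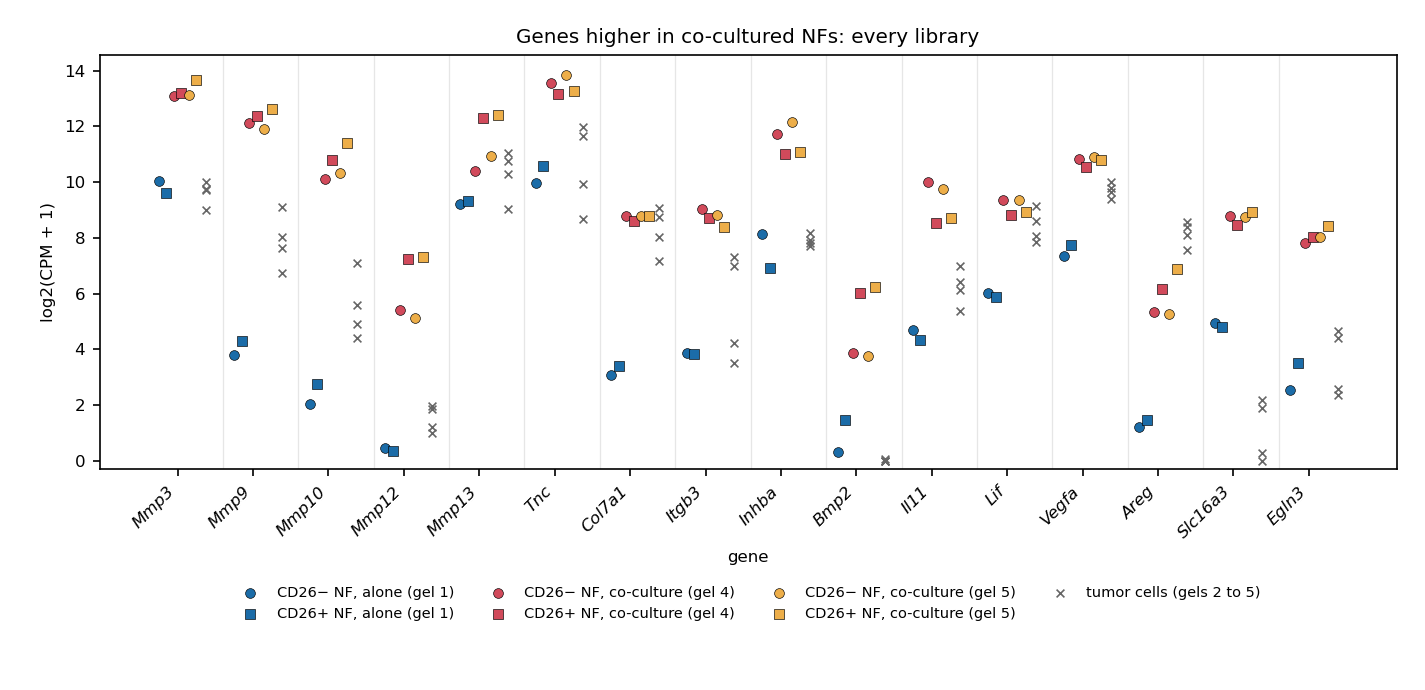
Levels (log2 of CPM + 1) of 16 genes that were higher in co-culture, in each of the 6 NF libraries (circles CD26−, squares CD26+, color by gel) and the 4 tumor libraries (crosses). All 4 co-cultured NF libraries lie above both libraries of NFs alone for each gene, and for Mmp13, Col7a1, Lif and Areg at least 1 tumor library is as high as a co-cultured NF library.

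Of 21 collagen chain genes, all tested, 8 rose, 8 fell and 5 did not pass the test (median 0.03), which is 38.1% in each direction, against 26.0% higher and 23.0% lower over all genes tested. The 3 chains of collagens I and III took 7.06% and 6.51% of all counts in NFs alone and 1.82 to 3.68% in co-cultured NFs. Col3a1, the chain of reticular collagen III, stood at 35673 and 34521 CPM in NFs alone, 10148 and 5484 CPM in gel 4 and 13081 and 8105 CPM in gel 5. Both libraries of NFs alone lay far above the 4 co-cultured libraries (log2 fold change -1.95 ± 0.25, adjusted p = 1.22e-04). Col1a2 (-0.99) and Col1a1 (-0.66) fell less, and without the CD26+ library of NFs alone neither was called (-0.74 and -0.35). The fall of Col1a1 was also lost without gel 4 (-0.57), either of its libraries (-0.69 and -0.56) or gel 5 (-0.75). Col14a1, a collagen that sits on the surface of fibrils, fell furthest of the list, at 974 and 531 CPM in NFs alone, 4.12 and 8.86 CPM in gel 4 and 4.09 and 10.7 CPM in gel 5. Col14a1 had a log2 fold change of -6.83 ± 0.46 (adjusted p = 5.27e-05). Col8a2 (-4.78) and Col11a1 (-3.43) also fell. Against these, Col7a1, which forms the anchoring fibrils of basement membrane, rose from 7.39 to 9.48 CPM to 389 to 443 CPM (log2 fold change 5.72 ± 0.21, adjusted p = 2.32e-08). The tumor libraries held 143 to 539 CPM of it, which covers 3.20% of the rise. Col5a3 (3.08 ± 0.33), Col18a1 (2.35 ± 0.16, 10.5% covered), Col5a2 (0.96 ± 0.19) and Col8a1 (0.97 ± 0.16) rose as well.

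Small leucine-rich proteoglycans sit on collagen fibrils and set their width. Of 12 listed, 11 were tested, 1 rose, 7 fell and 3 did not pass the test (median -2.69). Their summed share of counts overlapped between the conditions, at 1.77% and 1.33% in NFs alone and 1.15 to 1.65% in co-cultured NFs. Ogn (osteoglycin) stood at 137 and 138 CPM in NFs alone, 0.364 and 0.450 CPM in gel 4 and 0.978 and 0.990 CPM in gel 5. Ogn had a log2 fold change of -7.56 ± 0.25 (adjusted p = 3.23e-08). Fmod (fibromodulin) stood at 686 and 174 CPM in NFs alone, 49.2 and 19.6 CPM in gel 4 and 58.4 and 28.0 CPM in gel 5. Fmod had a log2 fold change of -3.24 ± 0.21 (adjusted p = 3.74e-06). Podn (-4.65) and Prelp (-2.62) fell with it. In each of these 4 genes the 4 co-cultured libraries lay below both libraries of NFs alone. Other members did not follow: Bgn (biglycan) had a log2 fold change of -0.02 ± 0.18 (adjusted p = 0.922), Lum had -0.39 ± 0.17 (adjusted p = 0.0761), and Dcn (decorin) rose by 0.50, a call lost without gel 4 (0.48), gel 5 (0.51), the CD26− library of gel 4 (0.50) or either library of NFs alone (0.61 and 0.38). Among 16 elastic fiber and microfibril genes, 3 rose, 8 fell and 5 did not pass the test (median -0.96). Fibrillin-2 (Fbn2) fell from 185 to 187 CPM to 13.5 to 24.7 CPM (log2 fold change -3.19 ± 0.17, adjusted p = 4.76e-07), fibulin-1 (Fbln1) fell by 2.22 on the log2 scale, and Mfap2 fell by 1.97. Efemp1 (fibulin-3) stood at 514 and 635 CPM in NFs alone, 0.727 and 7.71 CPM in gel 4 and 0.978 and 10.5 CPM in gel 5. Its log2 fold change was -7.39 ± 0.62, and without gel 4 it was -6.97 and not called. Ltbp4, which holds latent TGF-beta in the matrix, rose (log2 fold change 1.43 ± 0.13, adjusted p = 1.03e-05).

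Matricellular proteins, which sit in matrix and signal to cells, showed both directions: of 18, 4 rose, 9 fell and 5 did not pass the test (median -0.48). Tnc (tenascin-C) stood at 997 and 1514 CPM in NFs alone, 12143 and 9196 CPM in gel 4 and 14870.0 and 9851 CPM in gel 5, higher in CD26− than CD26+ NFs in both co-cultures and lower in gel 1 (log2 fold change 3.22 ± 0.31, adjusted p = 2.18e-05), though the difference in response between the subsets did not pass the test (-1.14, adjusted p = 0.366). Spp1 (osteopontin) rose from 1595 to 2449.8 CPM to 7154 to 11913 CPM (log2 fold change 2.22 ± 0.23, adjusted p = 2.52e-05), with 3592 to 4621 CPM in tumor libraries and 1.45% of the rise covered. Sparcl1 rose (2.54 ± 0.29). Ccn3, in contrast, stood at 298 and 479 CPM in NFs alone, 2.42 and 5.40 CPM in gel 4 and 1.38 and 3.54 CPM in gel 5. Ccn3 had a log2 fold change of -6.95 ± 0.21 (adjusted p = 1.73e-08). Ccn5 (-3.92), Smoc1 (-3.48) and Tnxb (-2.83) fell. Ccn2, a target of TGF-beta and YAP, had 0.16 ± 0.25 (adjusted p = 0.624), and Postn (periostin) had 0.88 ± 0.33 (adjusted p = 0.0576). The calls of Thbs1 (-0.54) and Thbs2 (0.45) were lost without gel 4 (-0.50 and 0.48), without gel 5 (-0.57 and 0.42) and without the CD26+ library of NFs alone (-0.33 and 0.30), and in several of the other fits that left out 1 library. Of 11 genes for collagen modification, 5 rose, 1 fell and 5 did not pass the test: the prolyl hydroxylases P4ha1 (1.83 ± 0.15) and P4ha2 (1.86 ± 0.17), the lysyl hydroxylase Plod1 (1.85 ± 0.22) and the lysyl oxidases Loxl2 (1.65 ± 0.32) and Lox (0.71 ± 0.18) rose, and P4ha3 fell (-0.71 ± 0.20, and -0.44 and still called without gel 4). The call of P4ha3 was lost without either library of NFs alone (-0.71 in both fits) or the CD26− library of gel 4 (-0.62). The call of Lox was lost without gel 5 (0.64) or without the CD26− library of NFs alone (0.46). P4hb, the subunit shared by the prolyl hydroxylases, rose from 1348 to 1499 CPM to 3433 to 3941 CPM (log2 fold change 1.41 ± 0.17, adjusted p = 8.24e-05). Fn1 (fibronectin), at 15160.0 and 9339 CPM in NFs alone, 26356 and 20974 CPM in gel 4 and 30638 and 17787 CPM in gel 5, rose by 1.03 on the log2 scale (adjusted p = 0.00188, edgeR), with every co-cultured library above both libraries of NFs alone. Of 11 hyaluronan genes, 1 rose, 6 fell and 4 did not pass the test: the synthase Has2 fell from 414 to 533 CPM to 110.5 to 157 CPM (log2 fold change -1.75 ± 0.17, adjusted p = 2.16e-05) and the hyaluronan-binding proteoglycan Vcan (versican) fell from 1458 to 1822 CPM to 248 to 462 CPM (log2 fold change -2.29 ± 0.18, adjusted p = 5.06e-06). The hyaluronidase Hyal1, whose exons overlap other genes over 52% of their length, rose (1.40).

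Integrins, the receptors for these matrix proteins, mostly rose. Of 18 tested, 13 rose, 1 fell and 4 did not pass the test (median 1.63). Itgb3, the beta chain of receptors for vitronectin, osteopontin and fibronectin, stood at 13.5 and 13.2 CPM in NFs alone, 521 and 419.9 CPM in gel 4 and 446 and 332 CPM in gel 5 and did not overlap between conditions (log2 fold change 5.04 ± 0.20, adjusted p = 4.50e-08). Its partner Itgav rose by less (0.78 ± 0.16). The fibronectin receptor chain Itga5 rose (1.53 ± 0.22), as did the collagen receptor chains Itga1 (1.73 ± 0.26) and Itga2 (2.91 ± 0.23, 15.6% covered) and the laminin receptor chain Itga7 (3.69 ± 0.19, 7.66% covered). Tumor RNA bears on the laminin receptors Itga3 and Itgb4, of whose rise it covers 93.9% and 89.5%, and Itga3 was no longer called after subtraction. Itga9 fell (-0.80 ± 0.17, and -0.56 and not called without CD26+ NFs alone). Of 16 contractile genes, 2 rose, 9 fell and 5 did not pass the test (median -0.51). Of these 11 calls, 6 held without the CD26+ library of NFs alone, and Acta2, Actg2, Cnn1, Tpm1 and Des were lost. Myosin light chain kinase (Mylk) stood at 224 and 127 CPM in NFs alone, 12.5 and 5.01 CPM in gel 4 and 20.9 and 4.53 CPM in gel 5, the regulatory light chain Myl9 fell from 117 to 154 CPM to 16.4 to 34.6 CPM, and Lmod1 fell from 14.8 to 23.2 CPM to 1.48 to 4.30 CPM. Their log2 fold changes were -4.17 ± 0.28, adjusted p = 1.50e-05, -2.34 ± 0.17, adjusted p = 2.38e-06 and -2.73 ± 0.22, adjusted p = 5.72e-06. Acta2, smooth muscle actin, stood at 574 and 343 CPM in NFs alone, 238 and 80.2 CPM in gel 4 and 359.7 and 152 CPM in gel 5. Acta2 had a log2 fold change of -1.21 ± 0.30 (adjusted p = 0.0127). The CD26− library of gel 5 held as much Acta2 as the CD26+ library of NFs alone, and without the latter the fall was 0.88 on the log2 scale and not called. Tagln had 0.33 ± 0.25 (adjusted p = 0.315), and the cytoskeletal Smtn rose (1.82 ± 0.15).

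**Figure D3:**
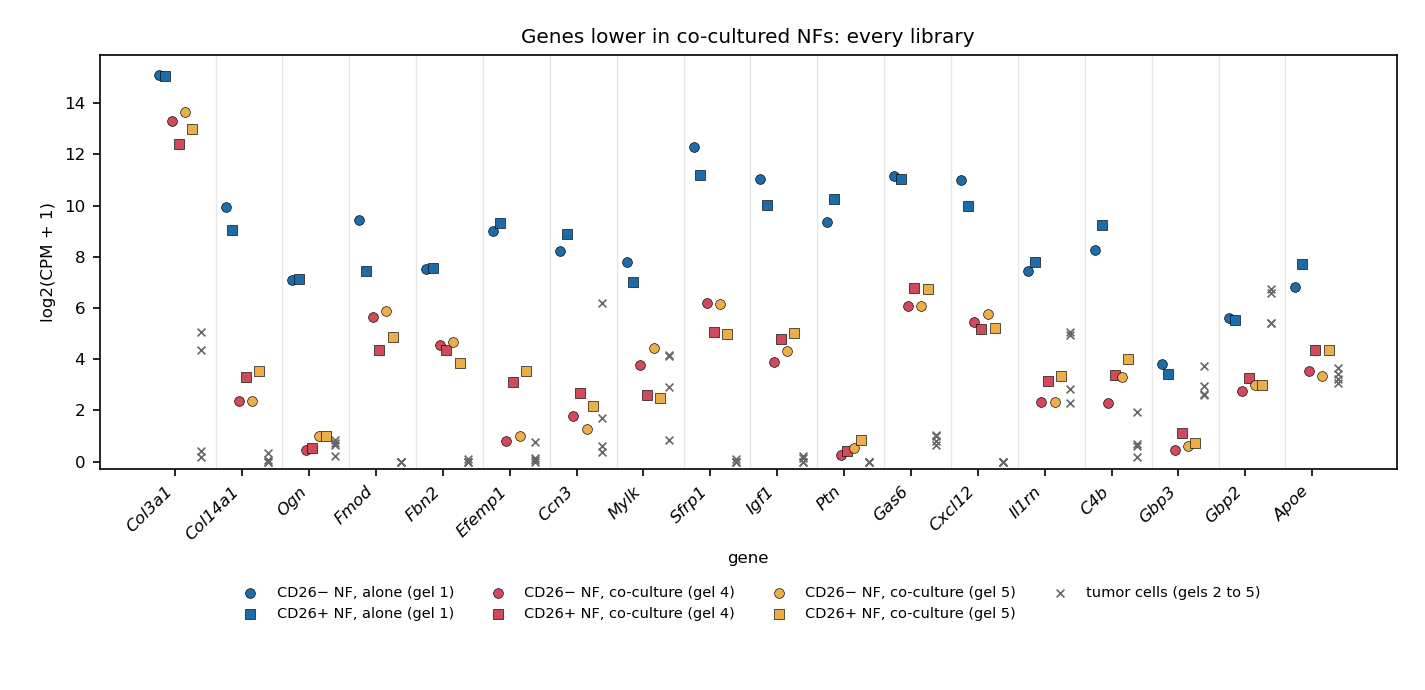
Levels (log2 of CPM + 1) of 18 genes that were lower in co-culture, in each of the 6 NF libraries (circles CD26−, squares CD26+, color by gel) and the 4 tumor libraries (crosses). Both libraries of NFs alone lie above all 4 co-cultured NF libraries for each gene, and the tumor libraries hold Gbp2, Gbp3 and Il1rn at levels near or above those of co-cultured NFs.

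In the TGF-beta family, of 21 ligands and antagonists, 19 were tested, 10 rose, 3 fell and 6 did not pass the test, and all 13 calls held without gel 4, without gel 5 and in each fit that left out 1 library. Inhba, the subunit of activin A, stood at 283 and 119.6 CPM in NFs alone, 3346 and 2059 CPM in gel 4 and 4534 and 2152 CPM in gel 5. Inhba had a log2 fold change of 4.02 ± 0.23 (adjusted p = 5.19e-07). Each co-cultured library lay far above both libraries of NFs alone, and the tumor libraries held 209 to 285 CPM. Tgfb1 rose from 38.1 to 56.3 CPM to 291 to 419.8 CPM (log2 fold change 2.99 ± 0.24, adjusted p = 7.91e-06), with 61.0 to 89.0 CPM in tumor cells, whereas Tgfb2 (-0.09 ± 0.14) and Tgfb3 (-0.46 ± 0.23) did not pass the test. Bmp2 stood at 0.248 and 1.75 CPM in NFs alone, 13.5 and 64.8 CPM in gel 4 and 12.4 and 75.0 CPM in gel 5 (log2 fold change 5.42 ± 0.23, adjusted p = 8.58e-08), so it was higher in CD26+ NFs in each gel. The BMP antagonists Grem1 (2.34 ± 0.22) and Chrd (1.88 ± 0.18) rose, and the activin antagonist Fst fell (-1.15 ± 0.15), as did Gdf10 (-4.50 ± 0.26). Bmp7 had 0 counts in NFs alone but 1.90 to 5.91 CPM in co-cultured NFs, and tumor RNA covers 55.2% of that.

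Among cytokines of the IL-6 and IL-1 families, 14 of 16 were tested and 9 rose, 4 fell and 1 did not pass the test. Il11 stood at 25.02 and 19.0 CPM in NFs alone, 1013 and 371 CPM in gel 4 and 859 and 420.4 CPM in gel 5 (log2 fold change 4.84 ± 0.25, adjusted p = 3.67e-07), with 40.1 to 127 CPM in tumor cells. Lif stood at 63.3 and 58.3 CPM in NFs alone, 657 and 448 CPM in gel 4 and 654 and 485 CPM in gel 5. Lif had a log2 fold change of 3.23 ± 0.17 (adjusted p = 3.49e-07). Both are ligands of receptors that signal through gp130. Il6, of the same family, rose by less, from 33.0 to 57.8 CPM to 61.7 to 85.1 CPM (log2 fold change 0.82 ± 0.16, adjusted p = 0.00183). Il11, Lif, Il6 and Il1a were the 4 risen members of this list whose promoter windows held the AP-1 letters, out of 5 risen members with a window, and Il1rn, which fell, held them too. The part of the Il1a rise that tumor RNA covers is given below. The Il11 stretch (chr7:4778203-4778299, minus strand) is shown for comparison with those of the MMPs.
Il11: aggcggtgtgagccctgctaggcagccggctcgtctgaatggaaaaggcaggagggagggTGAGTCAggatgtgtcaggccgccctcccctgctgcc

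The interleukin-1 receptor antagonist Il1rn moved the other way, from 175 to 223 CPM to 3.97 to 9.05 CPM (log2 fold change -5.02 ± 0.17, adjusted p = 1.73e-08). Csf1, the macrophage growth factor, fell (-1.37) while Il34, the other ligand of its receptor, rose (2.23). Il1a had 0 counts in NFs alone but 17.3 to 21.6 CPM in co-cultured NFs. Tumor RNA, at 374 to 936 CPM, covers 55.9% of the rise, or 162% by the upper estimate. For Csf3 it covers 76.7%, and the call was lost after subtraction. Most chemokines fell: of 18 listed, 15 were tested, 1 rose, 12 fell and 2 did not pass the test (median -1.60). Ccl9 stood at 43.5 and 34.7 CPM in NFs alone, 0.182 and 0.450 CPM in gel 4 and 0.230 and 1.41 CPM in gel 5 (log2 fold change -6.15 ± 0.47, adjusted p = 3.25e-05). Cxcl5, a ligand of neutrophil receptor CXCR2, fell from 112 to 200.1 CPM to 9.88 to 18.8 CPM (log2 fold change -3.44 ± 0.30, adjusted p = 6.70e-05). The monocyte chemokine Ccl2 fell from 205 to 268 CPM to 40.6 to 71.3 CPM (log2 fold change -2.11 ± 0.24, adjusted p = 2.36e-04). Cxcl12, which retains leukocytes and stem cells, fell from 1024 to 2037 CPM to 35.1 to 53.8 CPM (log2 fold change -5.07 ± 0.18, adjusted p = 1.94e-08). Ccl7 (-1.60) and Cxcl1 (-1.28) fell as well. The falls of Ccl11 and Cxcl2 rest on few libraries: Ccl11 (-1.82) was not called without gel 4 (-1.55) and was -1.20 without the CD26− library of NFs alone. Cxcl2 (-1.51) was not called without gel 5 (-1.15) or the CD26− library of NFs alone (-0.68), and was -2.34 without the CD26+ library. Cxcl14 had 1733 and 471 CPM in NFs alone, 1231 and 189.6 CPM in gel 4 and 1070.4 and 238 CPM in gel 5, an uneven pair in every gel (log2 fold change -0.83 ± 0.17, adjusted p = 0.00273, and -0.54 and not called without CD26+ NFs alone). The lone rise, Cxcl16 (0.56), was lost after subtraction of tumor RNA and without the CD26+ library of NFs alone (0.34), the CD26− library of gel 4 (0.57) or gel 5 (0.51).

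Of 25 growth factor ligands, 24 were tested, 11 rose, 9 fell and 4 did not pass the test. Of 5 ligands of the EGF receptor family, 4 rose: Areg (amphiregulin) from 1.30 to 1.75 CPM to 37.3 to 117 CPM (log2 fold change 5.39 ± 0.33, adjusted p = 2.61e-06), Hbegf from 24.7 to 27.7 CPM to 184 to 357 CPM (log2 fold change 3.38 ± 0.27, adjusted p = 1.49e-05), Ereg (1.49 ± 0.20) and Nrg1 (1.37 ± 0.33), while Tgfa did not pass the test (1.63 ± 0.61). Nrg1 was not called without the CD26+ library of NFs alone (0.89). Tumor libraries held 186 to 383 CPM of Areg, which covers 10.4% of its rise. Vegfa, the angiogenic factor, stood at 162 and 214 CPM in NFs alone, 1805 and 1496 CPM in gel 4 and 1910.0 and 1752 CPM in gel 5. Vegfa had a log2 fold change of 3.26 ± 0.21 (adjusted p = 1.34e-06). Vegfd, a lymphatic factor, fell from 122 to 125 CPM to 7.52 to 11.6 CPM (log2 fold change -3.59 ± 0.17, adjusted p = 2.25e-07). Angpt1, which stabilizes vessels, fell (-3.96 ± 0.20). Igf1 stood at 2106 and 1029 CPM in NFs alone, 13.9 and 26.9 CPM in gel 4 and 19.0 and 31.8 CPM in gel 5 (log2 fold change -6.10 ± 0.42, adjusted p = 3.48e-05). Fgf10, a mesenchymal signal to mammary epithelium, fell from 125 to 149 CPM to 7.83 to 14.97 CPM (log2 fold change -3.57 ± 0.14, adjusted p = 5.24e-08). Ptn (pleiotrophin) fell from 652 to 1238 CPM to 0.182 to 0.778 CPM (adjusted p = 2.53e-09). Fgf2 rose (1.25 ± 0.14) and Hgf did not pass the test (0.01 ± 0.20). Pdgfb had 0 counts in NFs alone and no more than 2.69 CPM in co-cultured NFs, which tumor RNA covers in full.

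Of 23 Wnt genes, 20 were tested, 9 rose, 9 fell and 2 did not pass the test. Of the tested genes for secreted Wnt antagonists named Sfrp, which were Sfrp1, Sfrp2 and Sfrp4, each fell. Sfrp1 (ENSMUSG00000031548, chromosome 8, 23411502 to 23449632) stood at 5070.0 and 2315 CPM in NFs alone, 71.6 and 32.7 CPM in gel 4 and 70.6 and 30.4 CPM in gel 5, with no overlap between the conditions (log2 fold change -6.13 ± 0.15, adjusted p = 2.53e-09). Sfrp2 fell from 2195 to 2835 CPM to 0.848 to 10.0 CPM (log2 fold change -9.58 ± 0.75, adjusted p = 1.19e-04). Without gel 4 the latter was -9.06 and not called. Sfrp4 fell from 53.8 to 162 CPM to 11.7 to 18.1 CPM (log2 fold change -2.75 ± 0.43, adjusted p = 0.00268), and was -1.63 without CD26+ NFs alone and -2.57 and not called without gel 4. Other secreted Wnt antagonists went both ways. Dkk3 fell from 186 to 210.1 CPM to 131 to 165 CPM (log2 fold change -0.35 ± 0.12, adjusted p = 0.0366), a call that was lost after subtraction of the tumor share (-0.29), without gel 4 (-0.28) or gel 5 (-0.42), and in 4 of the 6 fits that left out 1 library. The rises were Frzb, of the Sfrp family, from 2.98 to 17.0 CPM to 12.4 to 25.2 CPM with overlap (log2 fold change 1.10 ± 0.35, adjusted p = 0.0311), Wif1 from 0.124 to 0.912 CPM to 1.15 to 3.11 CPM (log2 fold change 2.12 ± 0.60, adjusted p = 0.0142), and Dkk1, with 1 count in NFs alone, to 0.121 to 0.771 CPM, a ratio of 12.4 (95% counting interval 2.23 to 490.2). Without CD26− NFs alone Frzb was 0.42 and Wif1 1.45 and neither was called, and without CD26+ NFs alone they were 2.11 and 3.55. Both calls were also lost without gel 5 (1.04 and 1.76), and that of Frzb without gel 4 (1.29), its CD26− library (1.05) or either library of gel 5 (1.02 and 1.14). The count of Dkk1 was in the CD26− library, so no fold can be given without it, and without the CD26+ library Dkk1 was not called (1.21). Its call was also lost with DESeq2 (3.35), without a filter on low counts (3.17) or with no subset term (3.39). The ligand Wnt16 fell from 17.8 to 39.6 CPM to 0.460 to 3.61 CPM (log2 fold change -4.23 ± 0.30, adjusted p = 3.67e-06) and the Wnt agonist Rspo2 fell from 4.59 to 38.6 CPM to 0.115 to 0.667 CPM (-5.30, -3.50 without CD26+ NFs alone). Wnt11 stood at 1.18 and 2.60 CPM in NFs alone, 66.0 and 28.5 CPM in gel 4 and 57.1 and 34.1 CPM in gel 5 (log2 fold change 4.59 ± 0.44, adjusted p = 1.11e-04) and Wnt9a (1.73 ± 0.20) and Wnt5a (0.71 ± 0.14) rose. Many Wnt calls rested on few libraries: of 18 calls, 11 held without gel 4, 12 without gel 5 and 10 in each fit that left out 1 library.

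Genes of glycolysis and of the response to low oxygen rose almost without exception. Of 24 tested, 23 rose, 1 fell and 0 did not pass the test (median 1.98), and all 24 calls held without gel 4, without gel 5, in each fit that left out 1 library and after subtraction of tumor RNA. The list took 0.438% and 0.491% of counts in NFs alone and 1.54 to 1.90% in co-cultured NFs. At the entry, the glucose transporter Slc2a1 stood at 148 and 153 CPM in NFs alone, 1108 and 1021 CPM in gel 4 and 857 and 1097 CPM in gel 5. Slc2a1 had a log2 fold change of 2.81 ± 0.17 (adjusted p = 7.56e-07). Of the hexokinases, Hk1 rose (1.67 ± 0.14) and Hk2 was the lone fall (294 to 385 CPM in NFs alone against 149 to 201 CPM in co-cultured NFs, log2 fold change -0.92 ± 0.15, adjusted p = 7.48e-04). Phosphofructokinase Pfkp stood at 41.9 and 39.2 CPM in NFs alone, 417 and 486 CPM in gel 4 and 433 and 460.5 CPM in gel 5 (log2 fold change 3.51 ± 0.16, adjusted p = 1.18e-07). The later enzymes rose by 1.07 (Pkm) to 2.39 (Pgk1). At the exit, the lactate exporter Slc16a3 rose from 26.6 to 29.9 CPM to 353 to 484 CPM (log2 fold change 3.96 ± 0.19, adjusted p = 2.12e-07), with 0 to 3.59 CPM in tumor cells. Several glycolytic genes, Gapdh, Pgk1, Ldha and Pkm among them, have processed copies in the genome that could share their reads. The 3 largest rises of the list were classical targets of hypoxia-inducible factor. The carbonic anhydrase Car9 rose from 0.0621 to 0.281 CPM to 32.4 to 41.4 CPM (log2 fold change 7.72 ± 0.34, adjusted p = 9.06e-08), and the prolyl hydroxylase Egln3 from 4.84 to 10.3 CPM to 224 to 343 CPM (log2 fold change 5.27 ± 0.26, adjusted p = 3.85e-07). The oxidoreductase Ero1l, an enzyme of disulfide formation, rose from 37.1 to 37.7 CPM to 1404 to 1915 CPM (log2 fold change 5.44 ± 0.23, adjusted p = 6.53e-08). The tumor share covers 5.90%, 0.133% and 4.34% of these. Bnip3 (3.02 ± 0.17), Ankrd37 (3.92 ± 0.31) and Ndrg1 (2.71 ± 0.30) followed, and the subunit Cox4i2 of cytochrome oxidase, known as its form in low oxygen, rose from 0.186 to 0.421 CPM to 25.4 to 36.5 CPM (log2 fold change 6.78 ± 0.35, adjusted p = 2.82e-07).

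The core letters of the hypoxia response element, ACGTG or CACGT on the gene's strand, were searched in the same promoter windows, a choice made after the values of this list were seen. They stood in a window of 15 of the 21 risen genes with one and in that of Hk2. By window, these were 17 of the 31 windows of the risen genes (54.8%), against 19.6% of all windows in the table and 25.9% of windows of genes tested that did not pass the threshold. Over all genes tested, the letters stood in 25.4% of the windows of genes that rose and 22.4% of those of genes that fell. For rises over 2 on the log2 scale the share was 21.1%, so the letters did not go with rising genes in general. The stretches are 1 each from the target Car9 (chr4:43506948-43507025, plus strand), the glycolytic Pgk1 (chrX:106186890-106187003, plus strand) and the exporter Slc16a3 (chr11:120948980-120949066, plus strand), with the letters in capitals.
Car9: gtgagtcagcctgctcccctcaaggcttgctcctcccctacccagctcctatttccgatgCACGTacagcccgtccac
Pgk1: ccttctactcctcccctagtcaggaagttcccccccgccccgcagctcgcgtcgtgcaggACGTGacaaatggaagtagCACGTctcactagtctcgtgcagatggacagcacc
Slc16a3: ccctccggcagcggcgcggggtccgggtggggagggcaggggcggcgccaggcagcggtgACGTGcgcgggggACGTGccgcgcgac

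**Figure D4:**
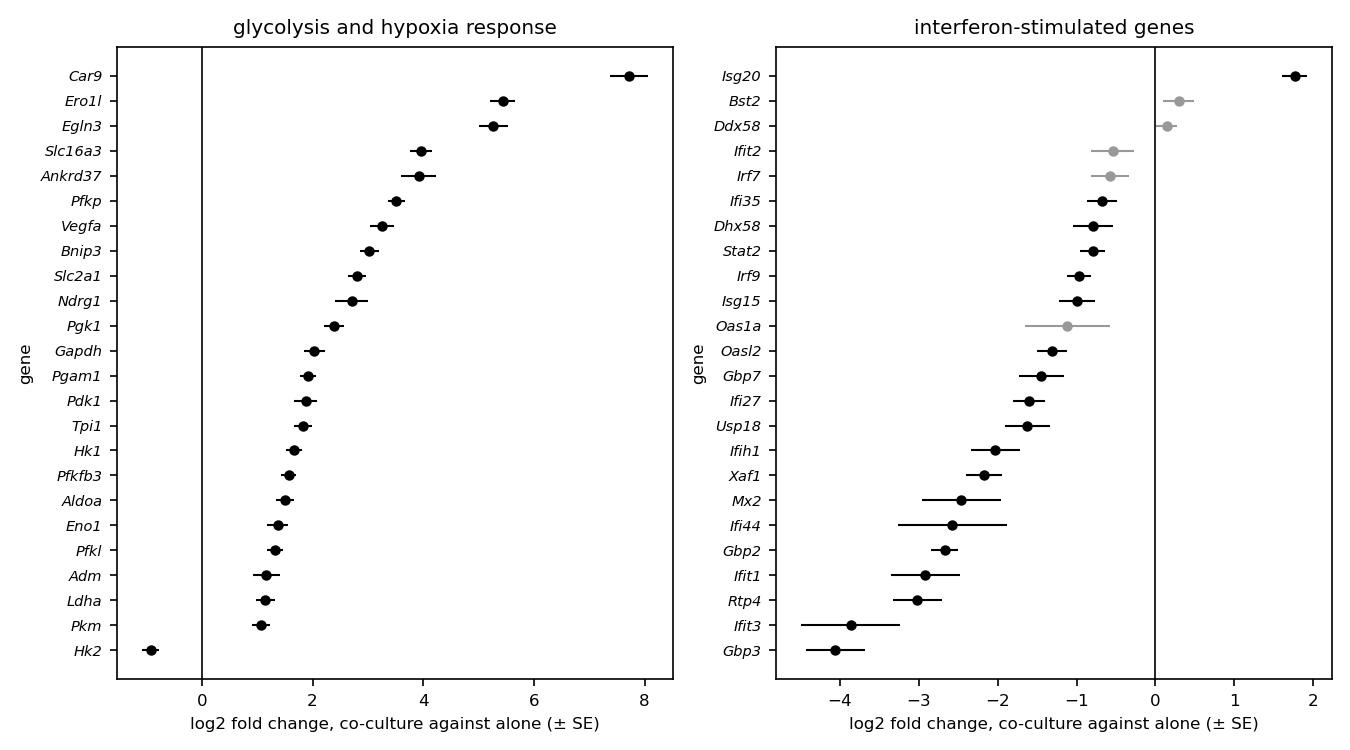
Log2 fold change of co-cultured against lone NFs with its standard error for each tested gene of glycolysis and hypoxia (left, 24 genes) and 24 of the 25 tested interferon-stimulated genes (right), with gray for genes that did not pass the test. Hk2 is the lone gene left of 0 in the left panel, and Isg20 the lone black point right of 0 in the right panel.

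Genes of other stress responses rose by less. Of 18 targets of NRF2 and glutathione enzymes, 17 were tested, 15 rose, 0 fell and 2 did not pass the test (median 0.92). Nqo1, the quinone reductase, stood at 17.7 and 26.7 CPM in NFs alone, 183 and 161 CPM in gel 4 and 160.4 and 205 CPM in gel 5 (log2 fold change 3.06 ± 0.19, adjusted p = 9.09e-07). The cystine transporter Slc7a11 rose from 15.02 to 19.2 CPM to 101 to 144 CPM (log2 fold change 2.98 ± 0.18, adjusted p = 8.25e-07). Of 15 calls, 15 held without gel 4, 10 without gel 5 and 7 in each fit that left out 1 library. In the unfolded protein and amino acid response, 21 genes were tested and 12 rose, 2 fell and 7 did not pass the test, with the chaperone Hspa5 (1.25 ± 0.22), Ddit3 (1.51 ± 0.23) and Dnajb9 (1.08 ± 0.13) among the rises and Pdia4 (-0.68 ± 0.12) and Atf5 (-0.77 ± 0.15) as the falls. Of these 14 calls, 13 held without gel 4, 10 without gel 5 and fewer without the CD26+ library of NFs alone. Of 22 genes of cholesterol synthesis and uptake, 15 rose, 2 fell and 5 did not pass the test (median 0.62). Of the 17 calls, all held without gel 4, 14 without gel 5 and fewer without the CD26− library of NFs alone. Lss rose by 1.00 on the log2 scale, and the falls were Mvk (-1.05 ± 0.17) and Hsd17b7 (-0.87 ± 0.14). Of the 5 metallothionein and zinc genes, Mt1 stood at 84.1 and 1073 CPM in NFs alone, 214 and 2769.5 CPM in gel 4 and 170.4 and 3644 CPM in gel 5, higher in CD26+ NFs in every gel (log2 fold change 1.43 ± 0.19, adjusted p = 1.55e-04), Mt2 rose (1.50, with 73% of its exons overlapping another gene) and Mt3 had 0 counts in NFs alone but 2.42 to 9.12 CPM in co-cultured NFs. The zinc transporter Slc39a14 fell (-0.45, and -0.28 and not called without gel 4 or -0.27 without the CD26− library of NFs alone, and lost without either library of gel 4 or the CD26− library of gel 5 or after subtraction of the tumor share, at -0.43), and Slc30a1 did not pass the test (-0.16 ± 0.14).

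Interferon-stimulated genes mostly fell. Of 30 listed, 25 were tested, 1 rose, 19 fell and 5 did not pass the test (median -1.44, against 0.02 over all genes). The transcription factors Stat2 (-0.80 ± 0.15) and Irf9 (-0.97 ± 0.15), which act in the response to type I interferon, fell, while Irf7 did not pass the test (-0.57 ± 0.24). The guanylate-binding proteins Gbp2 and Gbp3 fell from 45.2 to 47.4 CPM to 5.70 to 8.67 CPM (log2 fold change -2.67 ± 0.17, adjusted p = 9.88e-07) and from 9.62 to 13.0 CPM to 0.364 to 1.16 CPM (log2 fold change -4.06 ± 0.37, adjusted p = 1.18e-05). Ifit1 stood at 4.78 and 7.72 CPM in NFs alone, 0.909 and 0.450 CPM in gel 4 and 1.32 and 0.566 CPM in gel 5. Ifit1 had a log2 fold change of -2.92 ± 0.44 (adjusted p = 3.45e-04). Isg20 was the lone rise (1.77 ± 0.15, 24.2% covered by tumor RNA). The tumor libraries held 41.1 to 105 CPM of Gbp2 and 5.13 to 12.2 CPM of Gbp3.

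The interferon-stimulated response element, searched as GAAA followed after any 2 bases by GAAA, or the same with TTTC for the other strand, stood in windows of 8 of the 13 fallen members with a window (53.3% of their 15 windows), in those of 3 of the 5 members that did not pass the test (3 of 6 windows), and in 3.44% of all windows. Over all genes tested, it was in 4.38% of the windows of genes that fell and in 2.15% of those that rose. The AP-1 letters showed the opposite order, with 5.52% of the windows of genes that rose and 3.48% of those of genes that fell, against 3.55% where genes did not pass the threshold and 5.20% of all windows. Among changes over 2 on the log2 scale, these shares were 8.29% for rises and 4.75% for falls. The CArG box of serum response factor stood in 1.59% of the windows of genes that rose and in 1.44% of those of genes that fell, against 1.02% where genes did not pass the threshold and 1.63% of all windows, and in 2.25% of the windows of rises over 2. The stretches of Ifit1 (chr19:34640725-34640843, plus strand), Ifit3 (chr19:34583313-34583446, plus strand) and Gbp2 (chr3:142620544-142620643, plus strand) are shown with the element in capitals, and that of Gbp2 also holds tgagtca in lower case.
Ifit1: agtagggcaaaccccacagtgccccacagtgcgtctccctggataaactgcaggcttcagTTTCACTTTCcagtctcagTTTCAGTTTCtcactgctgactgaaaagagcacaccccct
Ifit3: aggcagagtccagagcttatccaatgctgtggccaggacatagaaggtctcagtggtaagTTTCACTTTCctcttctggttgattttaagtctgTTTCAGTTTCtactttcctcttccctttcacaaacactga
Gbp2: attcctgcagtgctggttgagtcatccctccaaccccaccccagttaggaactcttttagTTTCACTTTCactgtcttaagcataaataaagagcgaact

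Of 14 MHC class I genes, 3 rose, 5 fell and 6 did not pass the test, so that 21.4% rose and 35.7% fell, against 26.0% and 23.0% over all genes tested. The heavy chains H2-K1, at 63.2 and 129.8 CPM in NFs alone, 289.8 and 399.8 CPM in gel 4 and 276 and 446 CPM in gel 5, and H2-D1, at 149.9 and 278 CPM in NFs alone, 396 and 656 CPM in gel 4 and 355 and 711 CPM in gel 5, rose (1.97 ± 0.16, adjusted p = 6.25e-06, and 1.36 ± 0.14, adjusted p = 2.68e-05 on the log2 scale). These are close copies, so reads may be divided unevenly between them. The trimming peptidase Erap1 (-1.40 ± 0.17) and the immunoproteasome subunit Psmb10 (-1.13 ± 0.21, and -0.73 and not called without the CD26− library of NFs alone) fell, and 3 of the 8 calls held in each fit that left out 1 library. Of 18 complement genes, 16 were tested, 2 rose, 8 fell and 6 did not pass the test. C4b stood at 309 and 598 CPM in NFs alone, 3.94 and 9.31 CPM in gel 4 and 8.86 and 15.1 CPM in gel 5 (log2 fold change -5.55 ± 0.31, adjusted p = 7.20e-06), C1ra fell from 139 to 168 CPM to 23.6 to 35.0 CPM (log2 fold change -2.41 ± 0.17, adjusted p = 2.40e-06) and C2 from 20.4 to 26.5 CPM to 2.65 to 6.30 CPM (-2.43), while C3, which rose (0.70), was not called after subtraction of the tumor share (0.67), without gel 4 (0.71), without gel 5 (0.78) or without the CD26− library of NFs alone (0.14), nor without the CD26− library of either co-culture (0.64 and 0.65) or the CD26+ library of gel 4 (0.78). It was 1.35 without the CD26+ library of NFs alone. Of 11 acute-phase and iron genes, 6 were tested, 1 rose, 2 fell and 3 did not pass the test: Lcn2 (lipocalin-2) rose from 0.497 to 7.16 CPM to 16.5 to 173 CPM (log2 fold change 4.66 ± 0.23, adjusted p = 2.28e-07, 17.8% covered by tumor RNA), Hp (haptoglobin) and Steap4 fell (-2.44 and -3.21, the latter -2.86 and not called without gel 4), and Saa3, at 44.4 and 407 CPM in NFs alone, 30.7 and 530.4 CPM in gel 4 and 24.3 and 596 CPM in gel 5, was higher in CD26+ NFs in every gel and did not pass the test of co-culture (-0.08 ± 0.24, adjusted p = 0.806). Among 16 NF-kB subunits and feedback genes, 6 rose, 6 fell and 4 did not pass the test. The adhesion molecule Vcam1 (425 to 429 CPM in NFs alone against 42.7 to 89.3 CPM in co-cultured NFs, log2 fold change -2.65 ± 0.22, adjusted p = 2.47e-05) and the feedback inhibitor Tnfaip3 (-1.14 ± 0.14) fell, and the subunit Relb rose (0.72 ± 0.15).

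Of 17 lipid and adipogenic genes, 4 rose, 9 fell and 4 did not pass the test (median -0.81). The share that rose was 23.5%, against 26.0% of all genes tested, and the share that fell was 52.9%, against 23.0%. Pparg, the master regulator of fat cells, stood at 23.2 and 25.9 CPM in NFs alone, 0.727 and 2.83 CPM in gel 4 and 0.921 and 3.11 CPM in gel 5. Pparg had a log2 fold change of -3.84 ± 0.32 (adjusted p = 1.08e-05). Lipoprotein lipase (Lpl) fell from 1021 to 1495 CPM to 107 to 302 CPM (log2 fold change -2.69 ± 0.18, adjusted p = 1.62e-06), Apoe fell from 113 to 212 CPM to 9.21 to 19.3 CPM (log2 fold change -3.43 ± 0.12, adjusted p = 2.12e-08) and Apod from 48.0 to 71.2 CPM to 0.545 to 1.32 CPM (-5.84). The lipid droplet protein Plin2 (1.19 ± 0.15), the desaturase Scd1 (1.02 ± 0.15) and the triglyceride enzyme Dgat2 (1.50 ± 0.18) rose. Of 28 cell cycle genes, 4 rose, 12 fell and 12 did not pass the test (median -0.68). Mki67 stood at 44.1 and 13.1 CPM in NFs alone, 10.3 and 4.82 CPM in gel 4 and 16.4 and 7.64 CPM in gel 5 (log2 fold change -1.38 ± 0.26, adjusted p = 0.00199). The ribonucleotide reductase subunit Rrm2 fell from 24.8 to 31.6 CPM to 7.88 to 9.21 CPM (log2 fold change -1.69 ± 0.16, adjusted p = 1.65e-05). The tumor libraries held 90.9 to 205 CPM of Mki67, above each NF library. Of 16 calls, 10 held without gel 4, 14 without gel 5 and 7 in each fit that left out 1 library. The cyclins Ccnd1 (1.21 ± 0.14, 33.9% covered) and Ccne2 (1.39 ± 0.31) and the transcription factor E2f1 (0.85 ± 0.13) rose.

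**Figure D5:**
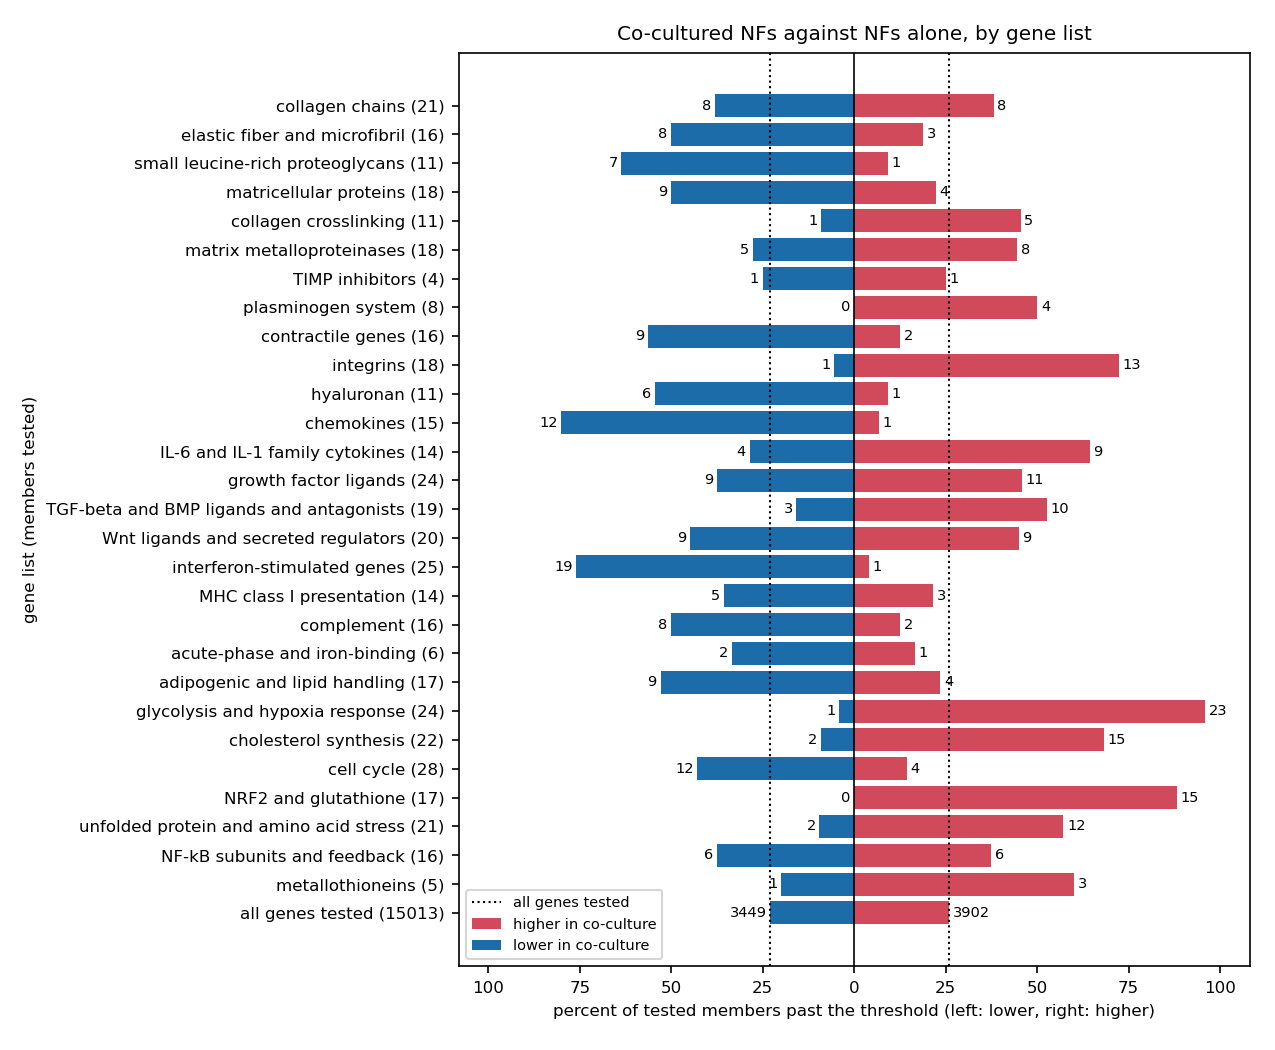
Share of the tested members of each list that rose (right, red) or fell (left, blue) in co-cultured NFs, with the number of members on each bar and the shares over all genes tested as dotted lines. The bars of glycolysis and hypoxia (23 of 24 rose), NRF2 (15 of 17 rose), chemokines (12 of 15 fell) and interferon-stimulated genes (19 of 25 fell) lie far past the dotted lines.

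Further genes were named for the size of their change. Gad1 (glutamate decarboxylase) had 0 counts in NFs alone, 1.70 and 58.1 CPM in gel 4 and 1.55 and 56.0 CPM in gel 5, at least 148-fold higher against the floor with the higher level in CD26+ NFs of both gels. Chrna1, a subunit of the muscle acetylcholine receptor, was at least 109-fold higher (10.1 to 33.0 CPM) and the chloride channel protein Clic5 at least 128-fold (7.37 to 45.5 CPM). Lamc3, a laminin chain, rose from 0.211 to 0.807 CPM to 109 to 145 CPM (log2 fold change 7.96 ± 0.27, adjusted p = 1.73e-08). Stra6, the receptor for retinol-binding protein, rose from 0.491 to 0.683 CPM to 71.0 to 183 CPM (log2 fold change 7.64 ± 0.26, adjusted p = 1.73e-08). Acpp, a phosphatase, rose from 0.281 to 0.310 CPM to 76.6 to 138 CPM (log2 fold change 8.47 ± 0.26, adjusted p = 1.12e-08). Gipr, the receptor for the gut hormone GIP, had 1 count in NFs alone but 6.62 to 21.1 CPM in co-cultured NFs, a ratio of 431 (95% counting interval 77.4 to 17024), and Lrrc55 had a ratio of 390.4 (95% counting interval 70.1 to 15422). The hormone Fgf21 rose from 0 to 0.248 CPM to 15.1 to 34.1 CPM (log2 fold change 7.32 ± 0.62, adjusted p = 3.24e-05). Since CD26+ NFs alone had 0 counts, no fold can be given without the CD26− library. Tumor libraries stood above the co-cultured NFs for Krt18, Wfdc2, Pkp1 and Wnt7b, of whose rises tumor RNA covers 89.2%, 90.1%, 72.6% and 89.9%, and Wfdc2 and Wnt7b were lost after subtraction. By the upper estimate the covered parts of these 4 genes are 117%, 112%, 128% and 111.5%.

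Several genes all but vanished in co-culture. Clec3b (tetranectin) had 13.0 to 59.1 CPM in NFs alone and 1 count in all co-cultured libraries, a ratio of 2204 (95% counting interval 396 to 87053) on the linear scale. The complement inhibitor Cfi had 41.2 and 27.6 CPM in NFs alone and 1 count in all co-cultured libraries with a ratio of 2214 (95% counting interval 397 to 87467), and Tnmd (tenomodulin) had 2 counts there with a ratio of 426 (95% counting interval 118 to 3520.5). The lectins Reg1 and Reg3g had 0 counts in all 4 co-cultured libraries and were at least 88.5-fold and 89.3-fold lower. The sodium channel Scn7a stood at 199.6 and 79.3 CPM in NFs alone, 0 and 0 CPM in gel 4 and 0.115 and 0.283 CPM in gel 5 (log2 fold change -10.36 ± 0.42, adjusted p = 5.14e-07) and the adhesion molecule Chl1 at 344 and 222 CPM in NFs alone, 0.0606 and 0.642 CPM in gel 4 and 0.115 and 0.424 CPM in gel 5. Chl1 had a log2 fold change of -9.78 ± 0.40 (adjusted p = 1.21e-06). The kininogen gene Kng1 (5.40 to 15.8 CPM in NFs alone), Egfl6 (27.4 to 163 CPM) and Galnt9 (46.2 to 62.3 CPM) each had 1 count in all co-cultured libraries, Clca3a1 was at least 55.5-fold lower, and Crocc2 fell from 79.6 to 126 CPM to 0.128 to 0.303 CPM. The rule also named Sfrp2 and Ptn, given above, and an unnamed locus. By the size of the CPM difference, the largest falls beside the collagens and Wnt antagonists were Igfbp4, which binds insulin-like growth factors (2124 to 4478 CPM in NFs alone against 148 to 243 CPM in co-cultured NFs, log2 fold change -3.91 ± 0.28, adjusted p = 1.14e-05), Gas6, the ligand of TAM receptors (2132 to 2257 CPM in NFs alone against 65.8 to 110.0 CPM in co-cultured NFs, log2 fold change -4.67 ± 0.18, adjusted p = 4.23e-08), the matrix proteins Sned1 (-6.21) and Abi3bp (-5.33) and mitochondrial mt-Cytb (-1.91).

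The log2 fold change differed between CD26+ and CD26− NFs for 58 of 15013 genes (0.386%) at an adjusted p under 0.05 (edgeR, interaction term), of which 40 were also called in the comparison of both subsets together. With the gel, which both subsets share, as a replicate block, 413 genes differed. Of the members of the lists and the named genes, 12 differed. Sfrp2, Efemp1, Col14a1, Tnn, Igf1, Rspo3 and Cemip fell by less in CD26+ NFs. Cspg4 and Notch3 rose by less in CD26+ NFs, and Sfrp4 fell by more. Eln (elastin) stood at 18.8 and 28.9 CPM in NFs alone, 25.4 and 6.17 CPM in gel 4 and 21.9 and 6.58 CPM in gel 5, so its CD26− libraries stayed near their level in gel 1 and its CD26+ libraries were lower. Cp (ceruloplasmin) stood at 63.4 and 131 CPM in NFs alone, 20.3 and 156 CPM in gel 4 and 24.4 and 149 CPM in gel 5, the reverse pattern. With 1 library of each subset in NFs alone, these differences rest on single libraries. Of the falls among them, those of Sfrp2, Efemp1, Tnn, Rspo3, Sfrp4 and Cemip were not called without gel 4 (-9.06, -6.97, -5.14, -2.23, -2.57 and -1.97). Without the CD26− library of NFs alone, the values of Tnn, Rspo3 and Cemip were -3.20, -1.17 and -0.84. Without the CD26+ library, those of Rspo3 and Sfrp4 were -3.58 and -1.63.

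Markers of other cell types were summed in each library. Of 10 endothelial markers, 7 were tested, and they summed to 6.46 and 14.7 CPM in NFs alone but 25.03 to 44.9 CPM in co-cultured NFs, with 4 members higher (Pecam1, Cdh5, Egfl7 and Esam) and Tek lower (-2.48). The call of Tek was lost without gel 4 (-2.44) or the CD26− library of NFs alone (-1.40), and its value was -4.08 without the CD26+ library. Of 10 leukocyte markers, 3 were tested and all rose: Cd68 (3.48 to 6.53 CPM in NFs alone against 19.6 to 53.5 CPM in co-cultured NFs) and Csf1r (1.86 to 2.81 CPM in NFs alone against 7.42 to 13.5 CPM in co-cultured NFs) carried most of the sum of 32.6 to 64.7 CPM, Itgam stood under 2 CPM, and Adgre1, Ms4a1 and Tyrobp had 0 counts in all 6 libraries, which allows up to 0.212 CPM. Of 8 pericyte markers, 7 were tested and 4 rose. They summed to 63.6 and 92.4 CPM in NFs alone but 213 to 565 CPM in co-cultured NFs, through Cspg4 (2.48 and 5.97 CPM in NFs alone, 148 and 59.7 CPM in gel 4 and 175 and 72.8 CPM in gel 5), Notch3 (28.3 to 68.9 CPM in NFs alone against 125 to 271 CPM in co-cultured NFs) and Mcam (2.61 to 3.30 CPM in NFs alone against 16.3 to 104 CPM in co-cultured NFs), while Rgs5 had -1.05 ± 0.43 (adjusted p = 0.0689). None of the 4 pericyte calls (Des was the other) held in every fit with a gel or library left out: without gel 4, Cspg4 (4.86) and Notch3 (2.22) were not called, and Notch3 was 0.98 without the CD26− and 3.08 without the CD26+ library of NFs alone. Mcam was lost without either library of NFs alone (3.09 and 4.93), Notch3 without the CD26+ library of gel 4 (2.16), and Des without the CD26+ library of NFs alone (1.26), of gel 4 (1.78) or of gel 5 (1.83) or the CD26− library of gel 5 (1.52). Without gel 5, Des did not pass the filter on low counts. Of 8 Schwann cell markers, 4 were tested and 2 fell, and they summed to 17.5 and 119 CPM in NFs alone but 2.76 to 8.91 CPM in co-cultured NFs, with Ngfr (-5.25) and S100b (-2.28) lower and Sox10 near 0. Of 8 adipocyte markers, 4 were tested, Plin1 fell and Adipoq was under 3 CPM in all 6 libraries. Their sum in CD26− NFs was 21.5 CPM alone, 15.9 CPM in gel 4 and 15.02 CPM in gel 5, and in CD26+ NFs it was 43.4, 47.3 and 57.1 CPM. Most of this was Fabp4, at 15.5 and 28.4 CPM in NFs alone, 8.54 and 38.3 CPM in gel 4 and 10.8 and 49.6 CPM in gel 5, which did not pass the test (0.02 ± 0.29). The part of other cell types in the results above was not tested.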

How the data were processed

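RNA was sequenced from 10 sorted cell samples of 5 gels after a TruSeq stranded mRNA preparation. The authors deposited 1 table of raw read counts per gene, with no normalization (55486 genes, 55226 of them, 99.5%, with an ID in GENCODE M21). Per the submitters' processing notes, reads were aligned with HISAT2 2.2.1 to GRCm38. The program that counted reads, whether it used strand, and its annotation are not given in the sources used here, so genes that overlap others on either strand carry that doubt. Totals of 14142334 to 17376216 counts per NF library set the counting error, and the intervals and floors given cover only that.

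Groups came from the labels. Counts of the 6 NF libraries were fitted with edgeR 4.0.16 in R 4.3.3 (TMM scaling, filterByExpr on culture, robust quasi-likelihood fit, subset and culture as terms) with Benjamini-Hochberg adjustment over 15013 genes, and called at an adjusted p under 0.05. The standard error is the absolute log2 fold change over the square root of the F statistic. CPM are counts per 1000000 counts of a library, without TMM. The tumor share is the median, over 7 epithelial genes with at most 3 counts in each library of NFs alone and at least 50 CPM in all tumor libraries, of the ratio to the tumor library of the same gel. The interaction of subset and culture and the difference between gels were fitted on the same libraries. The main fit was also run on simulated counts that held no gel effect, which does not bear on having only 1 gel of NFs alone. Alternatives were RLE scaling, no low-count filter or 1 CPM in 2 libraries, no subset term, gels or libraries left out, subtraction of the tumor share, DESeq2 1.42.0, limma 3.58.1 voom with the gel as a correlated block, and an added criterion of 2 on the log2 scale.

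Genes were named by rule: the 15 highest log2 fold changes with a mean of at least 10 CPM in co-cultured NFs, above each tumor library, with the same direction in all 4 pairs; the 5 highest with a tumor library as high; the 15 lowest log2 fold changes; and the 10 largest CPM differences in each direction. Predicted or unnamed loci are counted only, and a few genes of the lists and of the rule are counted but not reported here. The genes, the 35 gene lists and the comparison were chosen with earlier results of these data known, and genes of lists were picked for the text after their values were seen. Promoter windows come from RefSeq (GRCm38.p6). Both subsets of a gel share it, so the gel number pairs them, and in gel 4 the deviations of the subsets from their means correlated at 0.16 across genes. The correlation within gels that voom estimated was -0.13.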

Additional observations from a re-analysis of the deposited data

Results flagged for a closer look

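The response to co-culture differed between the subsets for 12 of the genes in the lists or named by rule (edgeR interaction test, adjusted over 15013 genes). The values are the log2 fold change in CD26+ NFs minus that in CD26− NFs, and no explanation was tested. Among genes that were lower in co-culture, the difference was 3.35 for Sfrp2 (adjusted p = 0.00803), 3.10 for Tnn (adjusted p = 0.00936), 3.06 for Efemp1 (adjusted p = 0.00556), 2.40 for Rspo3 (adjusted p = 0.0164), 2.10 for Col14a1 (adjusted p = 0.013), 1.91 for Cemip (adjusted p = 0.0296) and 1.83 for Igf1 (adjusted p = 0.049), so the CD26+ NFs fell by less. The Wnt antagonist Sfrp4 went the other way, at -2.07 (adjusted p = 0.013). The pericyte genes Cspg4 and Notch3, which were higher in co-culture, had -2.58 (adjusted p = 0.0151) and -2.11 (adjusted p = 0.0296). Neither Eln, at -2.54 (adjusted p = 0.00678), nor Cp, at 1.69 (adjusted p = 0.0296), passed the test over both subsets together. The CD26+ NFs had also received the adenovirus, and each subset of NFs alone was 1 library.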

How the results depend on the processing

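Against 7351 calls, there were 7369 with RLE scaling, 8041 without a filter, 7037 with a filter of 1 CPM, 5525 with no subset term, 7138 with DESeq2, 8000 with voom and the gel as a correlated block and 7108 after subtraction of the tumor share. The fits with 1 library left out gave 5099 to 7223 calls, and a criterion of 2 on the log2 scale left 2045. DESeq2 shared 7061 calls and the subtracted counts 6988, all in the same direction. The difference between the subsets was called for 58 genes, for 62 with RLE scaling and for 413 with the gel as a replicate block. No paired analysis was possible because culture is constant within a gel, so the main comparison holds no block. In the CD26+ library of gel 5, the lowest marker ratio put the tumor share at 2.57% in place of 4.45%. Of 409 called genes in the lists or named by rule, 78 were not called with no subset term, 61 without the CD26− and 61 without the CD26+ library of NFs alone, 40 without gel 4, 53 without gel 5 and 11 after subtraction, and 0 with RLE scaling or voom. A further 3 were not tested without gel 4, 3 without gel 5 and 7 after subtraction, since they no longer passed the filter on low counts, and counts of calls that held leave them out. Cd36, which was not called (0.15), ranged from -6.04 without the CD26+ to 1.58 without the CD26− library of NFs alone. Within lists, the calls that held fell by over 1.5 times as follows. Without the CD26+ library of NFs alone they fell from 14 to 7 for fibroblast markers, 4 to 2 for pericyte markers, 2 to 1 for TIMP inhibitors, 11 to 6 for contractile genes, 15 to 9 for NRF2 targets and 14 to 9 for the unfolded protein response. Without the CD26− library of NFs alone they fell from 8 to 3 for MHC class I genes, 17 to 11 for cholesterol genes, 16 to 7 for cell cycle genes and 15 to 8 for NRF2 targets. Pericyte markers fell to 2 without the CD26+ library of gel 4, without gel 4 or without a filter. Without gel 4, TIMP inhibitors fell to 1, Wnt genes from 18 to 11 and cell cycle genes to 10, and without gel 5, fibroblast markers fell to 9 and MHC class I genes to 5. With no subset term, the counts were 8 for fibroblast markers, 10 of 16 for collagens, 1 for TIMP inhibitors, 6 for contractile genes, 10 for Wnt genes, 5 for MHC class I genes and 2 of 4 for metallothioneins. Epithelial markers fell from 14 to 7 after subtraction. Of the 7 epithelial calls lost, 6 no longer passed the filter. The cause of the other shifts was not tested. Genes under 1 CPM in both conditions rest on few reads, and 1 gel of NFs alone limits every comparison.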

Other observations

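The genes of the factors whose motifs were searched were read from the same fit after the other values were seen. Of the 7 Fos and Jun genes, which encode AP-1, Fosl1 rose from 94.7 to 96.4 CPM in NFs alone to 112 to 162 CPM in co-cultured NFs (log2 fold change 0.66 ± 0.15, adjusted p = 0.00438, edgeR) and Jund rose (0.46 ± 0.16, adjusted p = 0.0334), while Fosl2 fell from 649 to 749 CPM to 186 to 232 CPM (-1.68 ± 0.12, adjusted p = 2.74e-06). Fos (-0.34 ± 0.14), Fosb (0.20 ± 0.16), Jun (0.02 ± 0.17) and Junb (-0.34 ± 0.16) did not pass the test. Tumor libraries held 212 to 485 CPM of Fosl1. The mRNA of Hif1a, the oxygen-regulated subunit of the hypoxia factor, fell from 340 to 534 CPM to 178 to 250 CPM (-0.87 ± 0.16, adjusted p = 0.00147), that of Epas1 rose (0.44 ± 0.16, adjusted p = 0.0435), and Arnt, their shared partner, did not pass the test (-0.08 ± 0.17). Of the interferon receptor and its kinase, Ifnar1 (0.23 ± 0.12), Ifnar2 (-0.25 ± 0.14) and Jak1 (-0.22 ± 0.14) did not pass the test, while the interferon regulatory factor Irf1 fell from 99.0 to 113 CPM to 40.3 to 43.1 CPM (-1.31 ± 0.12, adjusted p = 9.61e-06). These are mRNA levels, and the activity of the proteins was not measured.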
